A study of Mus musculus with 25 samples.

Results

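The enzymes that build purine and pyrimidine nucleotides from small precursors were followed across 3 mouse embryonic fibroblast lines and a rapamycin time course. The 10 genes were chosen by name: Ppat, Gart, Pfas, Paics, Adsl and Atic of the purine route, Impdh2 of its guanine branch, and Cad, Dhodh and Umps of the pyrimidine route. Each gene was read by its brightest probe set, judged by the mean of the 25 arrays. Of the 10 genes, 9 were measured, among 18161 genes in all. Impdh2, an enzyme on the way to GMP, was not named by any probe set in the annotation used and was not analysed here. The 9 measured genes have 23 probe sets between them.

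The purine ring is built stepwise on a ribose phosphate. Ppat opens the route, Gart, Pfas, Paics and Adsl extend the ring, and Atic closes it to give IMP, the parent of AMP and GMP. The pyrimidine ring is built first and joined to ribose later: Cad carries out the opening reactions, Dhodh oxidises the product in the mitochondrion, and Umps finishes the route to UMP. Growing cells need both routes for RNA and DNA. The kinase complex mTORC1 is known to promote them, in part through phosphorylation of the Cad protein and in part through transcripts of folate enzymes that supply carbon units to the purine ring. The TSC complex, formed by the products of Tsc1 and Tsc2, restrains mTORC1, and rapamycin inhibits it.

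Each array held RNA from 1 plate of cells. The Tsc2-null line (TSC2-/- p53-/-) and the wild-type line (TSC2+/+ p53-/-) come from littermate embryos, and neither has p53. The Tsc1-null line (TSC1-/-, p53+/+) was 3T3-immortalized, so against wild type it differs in p53 and in how it was immortalized as well as in Tsc1, and these cannot be told apart. Each genotype is a single line. All plates were serum starved for 24 h at 70% confluence in 10 cm plates. Each null line was given 20 nM rapamycin for 2, 6, 12 or 24 h (2 arrays per time), and vehicle (DMSO) was given for 24 h to the Tsc2-null, the Tsc1-null and the wild-type line (3 arrays each). The changes at 2, 6 and 12 h are therefore set against a vehicle of another duration. For the Tsc1-null arrays titled 12 h and 24 h the free text gives 11 h and 14 h, and the titles were followed. Wild-type cells under rapamycin were not analysed here. The labels call the arrays biological replicates, but they are plates of 1 line, so p-values measure the spread between plates.

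Values are the authors' log2 expression values. Array medians lay between 6.26 and 6.41. Precision is set by the few arrays per group. In 2 of the 3 Tsc1 probe sets every Tsc1-null array was below every other array, and in the brighter of these the Tsc1-null arrays read 6.51 to 7.38 and the other 14 arrays 7.78 to 8.87. The single Tsc2 probe set read 9.46 to 9.54 in Tsc2-null vehicle arrays, against 9.67 to 9.74 in wild-type vehicle arrays, and reached down to 7.85 in the Tsc2-null arrays as a whole. Whether it lies in the deleted part was not given, and the label of the Tsc2-null vehicle arrays is not checked by it. Of the 8 fibroblast markers, Col1a1, Col3a1 and Vim had group means of 12.73 or more under vehicle in every line, whereas Thy1 averaged 6.83 in the Tsc2-null and 7.64 in the Tsc1-null line, against 10.79 in wild type. In limma's test, described below, 1 of the 8 was higher and 5 lower in Tsc2-null vehicle cells than in wild type (median -0.27). In Tsc1-null vehicle cells 2 were higher and 5 lower (median -0.39). Over all genes, 45.0% were called in the Tsc2-null and 42.1% in the Tsc1-null comparison. The summed level of 6 epithelial markers was 5492 to 5677 on the linear scale in Tsc2-null, 667 to 747 in Tsc1-null and 1341 to 1476 in wild-type vehicle arrays. By the same test, 2 of the 6 were higher and 2 lower in Tsc2-null cells than in wild type (median -0.01, range -1.60 to 6.52). In Tsc1-null cells 0 were higher and 2 lower, beside the same shares over all genes. At 24 h of rapamycin the epithelial sum was 4687 to 5000 in Tsc2-null and 808 to 847 in Tsc1-null arrays. Against vehicle, 3 of 6 markers were then higher (Krt18 at 2.09) and 1 lower in Tsc2-null cells, and 2 higher in Tsc1-null cells. Of all genes, 35.6% (Tsc2-null) and 29.6% (Tsc1-null) were called at 24 h. The summed level of 3 adipocyte markers was 93 to 99 in Tsc2-null, 365 to 440 in Tsc1-null and 80 to 94 in wild-type vehicle arrays, and 92 to 102 in Tsc1-null arrays at 24 h of rapamycin. Of these, Fabp4 was 3.14 higher in Tsc1-null cells than in wild type and at -2.89 after rapamycin. The part of these markers in the differences between lines and with rapamycin was not tested. In RNA from whole plates, fewer expressing cells and less RNA per cell cannot be told apart.

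RefSeq promoter windows (GRCm38.p6, 250 bases before to 50 after the annotated start) were found for 8 of the 10 genes. Those of Ppat and Paics are shown because these neighbours moved in opposite directions under rapamycin, that of Atic because it holds an E-box next to its start, and that of Cad because its transcript differed between the null lines in the response to rapamycin. Capitals mark matches on either strand to the E-box CACGTG, to which Myc and its relatives bind, and to the GC box GGGCGG, read as CCGCCC on the other strand.
Ppat, chr5:76951529-76951828, minus strand: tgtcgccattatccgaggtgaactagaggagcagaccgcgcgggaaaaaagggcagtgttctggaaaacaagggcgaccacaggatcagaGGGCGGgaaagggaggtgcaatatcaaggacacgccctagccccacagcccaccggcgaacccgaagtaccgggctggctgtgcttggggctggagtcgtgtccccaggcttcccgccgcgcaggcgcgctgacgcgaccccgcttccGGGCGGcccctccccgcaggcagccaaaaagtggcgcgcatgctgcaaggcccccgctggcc
Paics, chr5:76951052-76951351, plus strand: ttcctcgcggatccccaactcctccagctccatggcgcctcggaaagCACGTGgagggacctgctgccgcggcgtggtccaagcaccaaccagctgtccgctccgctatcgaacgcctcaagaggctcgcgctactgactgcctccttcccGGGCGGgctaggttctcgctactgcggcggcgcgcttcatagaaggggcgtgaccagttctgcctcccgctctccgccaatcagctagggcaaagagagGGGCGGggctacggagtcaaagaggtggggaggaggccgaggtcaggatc
Atic, chr1:71556906-71557205, plus strand: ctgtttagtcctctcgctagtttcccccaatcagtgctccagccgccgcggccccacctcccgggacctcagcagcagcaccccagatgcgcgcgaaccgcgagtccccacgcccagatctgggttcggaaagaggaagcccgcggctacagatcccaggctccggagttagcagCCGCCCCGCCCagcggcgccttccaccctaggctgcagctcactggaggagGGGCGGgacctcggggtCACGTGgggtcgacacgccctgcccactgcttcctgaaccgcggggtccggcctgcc
Cad, chr5:31054530-31054829, plus strand: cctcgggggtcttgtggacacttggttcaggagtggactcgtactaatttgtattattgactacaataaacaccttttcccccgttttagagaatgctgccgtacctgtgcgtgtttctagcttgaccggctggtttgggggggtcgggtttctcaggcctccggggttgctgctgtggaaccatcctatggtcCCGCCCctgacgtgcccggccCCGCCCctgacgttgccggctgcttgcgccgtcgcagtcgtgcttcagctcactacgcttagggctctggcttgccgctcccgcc
The annotated starts of Ppat and Paics lie 276 bases apart on opposite strands of chromosome 5, and transcription from each runs towards the start of the other. CACGTG was present in 3 of the 8 windows, those of Paics (first base at -203 from the start), Atic (-7) and Impdh2, against 7.2% of 32851 windows of the same length. GGGCGG was present in 8 of 8 windows, against 35.7% of all, and in the Atic window 2 of its matches overlap each other. These matches describe the letters of the windows only.

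By brightest probe set, the Tsc1-null line under vehicle had less transcript of every measured enzyme than wild type. The Tsc2-null line differed in 3 and in no common direction. Another Cad probe set was higher in Tsc1-null cells, as described below. RNA was measured and protein was not. In limma's moderated test with Benjamini-Hochberg adjustment over all genes (threshold 0.05, two-sided), 9 of the 9 genes were lower in Tsc1-null cells, where 20.8% of all genes were called lower and 42.1% were called in either direction. The median difference of the 9 was -0.64 on the log2 scale, against -0.02 over all genes. In Tsc2-null cells 3 of 9 were called, 1 higher and 2 lower, where 45.0% of all genes were called, and the median was -0.08 against -0.01. Between the null lines, 7 of 9 were lower in Tsc1-null than in Tsc2-null cells, where 22.7% of all genes were called lower and 43.4% in either direction.

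**Figure D1:**
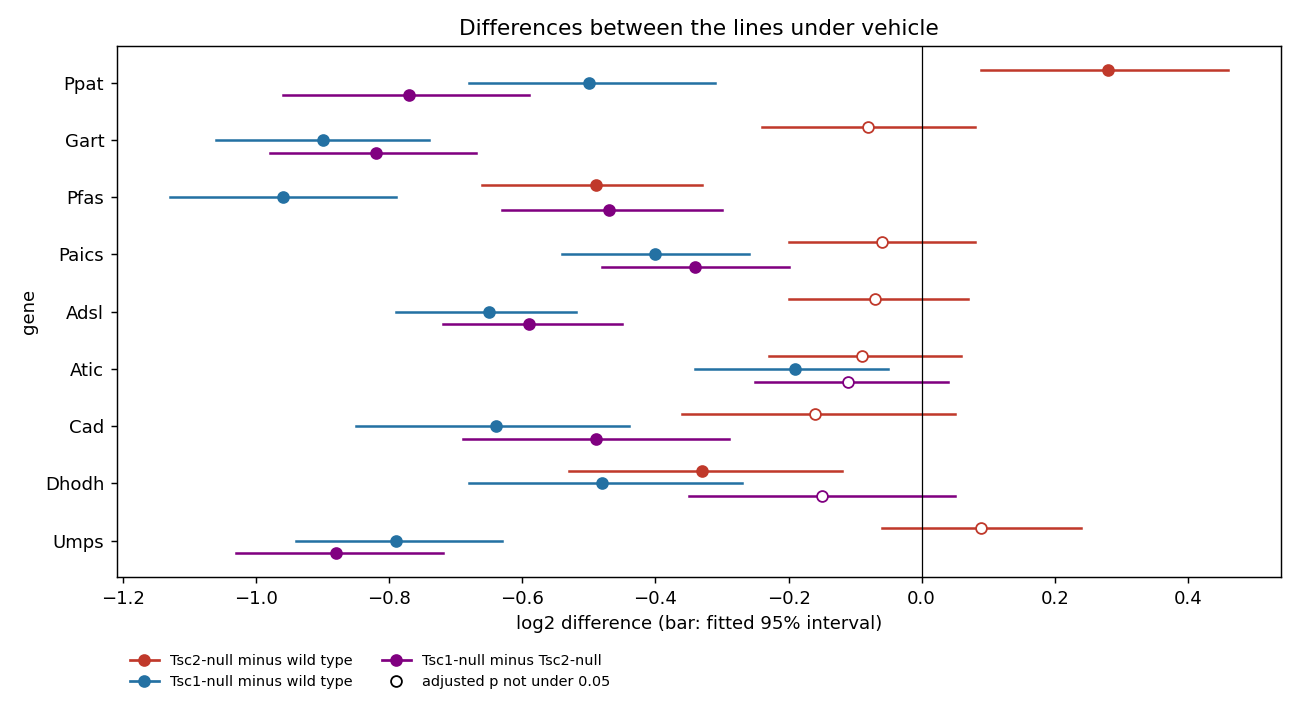
Log2 differences between the lines under vehicle for the 9 enzymes, with fitted 95% intervals; filled points have an adjusted p under 0.05. The Tsc1-null minus wild type points all lie left of 0, between -0.96 and -0.19, and the Tsc2-null minus wild type points lie between -0.49 and 0.28.

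The largest difference from wild type was in Pfas, which adds the nitrogen of glutamine before the first ring is closed. Pfas read 8.36, 8.31 and 8.19 in Tsc2-null cells and 7.83, 7.80 and 7.83 in Tsc1-null cells, against 8.89, 8.71 and 8.73 in wild type. The 3 lines did not overlap. Pfas was lower by both comparisons with wild type, with a log2 difference of -0.49 (SE 0.08, adjusted p = 1.7e-05) in Tsc2-null and -0.96 (SE 0.08, adjusted p = 8.9e-10) in Tsc1-null cells, which is 51.4% of the wild-type level.

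Gart, a single protein with activities on both sides of the Pfas step, set the Tsc1-null line apart from the other two. Gart read 8.92, 9.00 and 8.98 in Tsc1-null cells, against 9.98, 9.82 and 9.80 in wild type, a difference of -0.90 (SE 0.08, adjusted p = 1.1e-09). The Tsc2-null arrays (9.73, 9.83 and 9.80) overlapped wild type, and the difference of -0.08 had a 95% interval of -0.24 to 0.08. Adsl, which removes fumarate late in the route and again on the way to AMP, had the same arrangement, with 9.11, 9.15 and 9.08 in Tsc1-null cells, against 9.87, 9.73 and 9.71 in wild type (-0.65, SE 0.06, adjusted p = 1.5e-08). Adsl in Tsc2-null cells was 9.72, 9.64 and 9.74, with an interval of -0.20 to 0.07 for the difference.

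Ppat, the committing step of the purine route, was called in opposite directions in the null lines. Ppat read 8.39, 8.25 and 8.19 in Tsc2-null cells and 7.46, 7.44 and 7.60 in Tsc1-null cells, against 8.12, 8.00 and 7.87 in wild type. It was 0.28 higher in Tsc2-null cells (SE 0.09, adjusted p = 0.0125) and lower in Tsc1-null cells, at -0.50 (SE 0.09, adjusted p = 6.5e-05). The rise in Tsc2-null cells was not called without wild-type replicate 3 (adjusted p = 0.0828) or Tsc2-null replicate 1 (0.0786).

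Paics and Atic, which act later in the route, had the smallest differences from wild type in Tsc1-null cells. Paics read 12.10, 12.23 and 12.29 in Tsc1-null cells, against 12.71, 12.57 and 12.53 in wild type (-0.40, SE 0.07, adjusted p = 3e-05). Atic read 10.95, 10.95 and 10.98 in Tsc1-null cells, against 11.21, 11.13 and 11.12 in wild type, a difference of -0.19 (adjusted p = 0.0314) that was not called without wild-type replicate 1 (0.105), Tsc1-null replicate 1 (0.0747) or Tsc1-null replicate 2 (0.0765). Neither gene was called in Tsc2-null cells, where the differences were -0.06 for Paics and -0.09 for Atic.

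In the pyrimidine route, Cad and Umps were lower in Tsc1-null cells alone among the 2 comparisons with wild type, and Dhodh was lower in both. Cad read 8.57, 8.47 and 8.20 in Tsc1-null cells, against 9.14, 9.04 and 8.98 in wild type (-0.64, SE 0.10, adjusted p = 7.7e-06). Umps read 8.80, 8.88 and 8.76 in Tsc1-null cells, against 9.67, 9.54 and 9.60 in wild type (-0.79, SE 0.07, adjusted p = 6.3e-09). In Tsc2-null cells both overlapped wild type, with intervals of -0.36 to 0.05 for Cad and -0.06 to 0.24 for Umps. Against Tsc2-null cells, Tsc1-null cells were lower by a difference of -0.49 in Cad (adjusted p = 2.1e-04) and -0.88 in Umps (adjusted p = 1.1e-09). Dhodh read 7.28, 7.07 and 7.04 in Tsc2-null cells and 6.93, 7.03 and 6.97 in Tsc1-null cells, against 7.35, 7.47 and 7.55 in wild type. Its difference from wild type was -0.33 in the Tsc2-null (SE 0.10, adjusted p = 0.00818) and -0.48 in the Tsc1-null line (SE 0.10, adjusted p = 3e-04), and the null lines were not called different from each other in this gene (-0.15, interval -0.35 to 0.05).

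**Figure D2:**
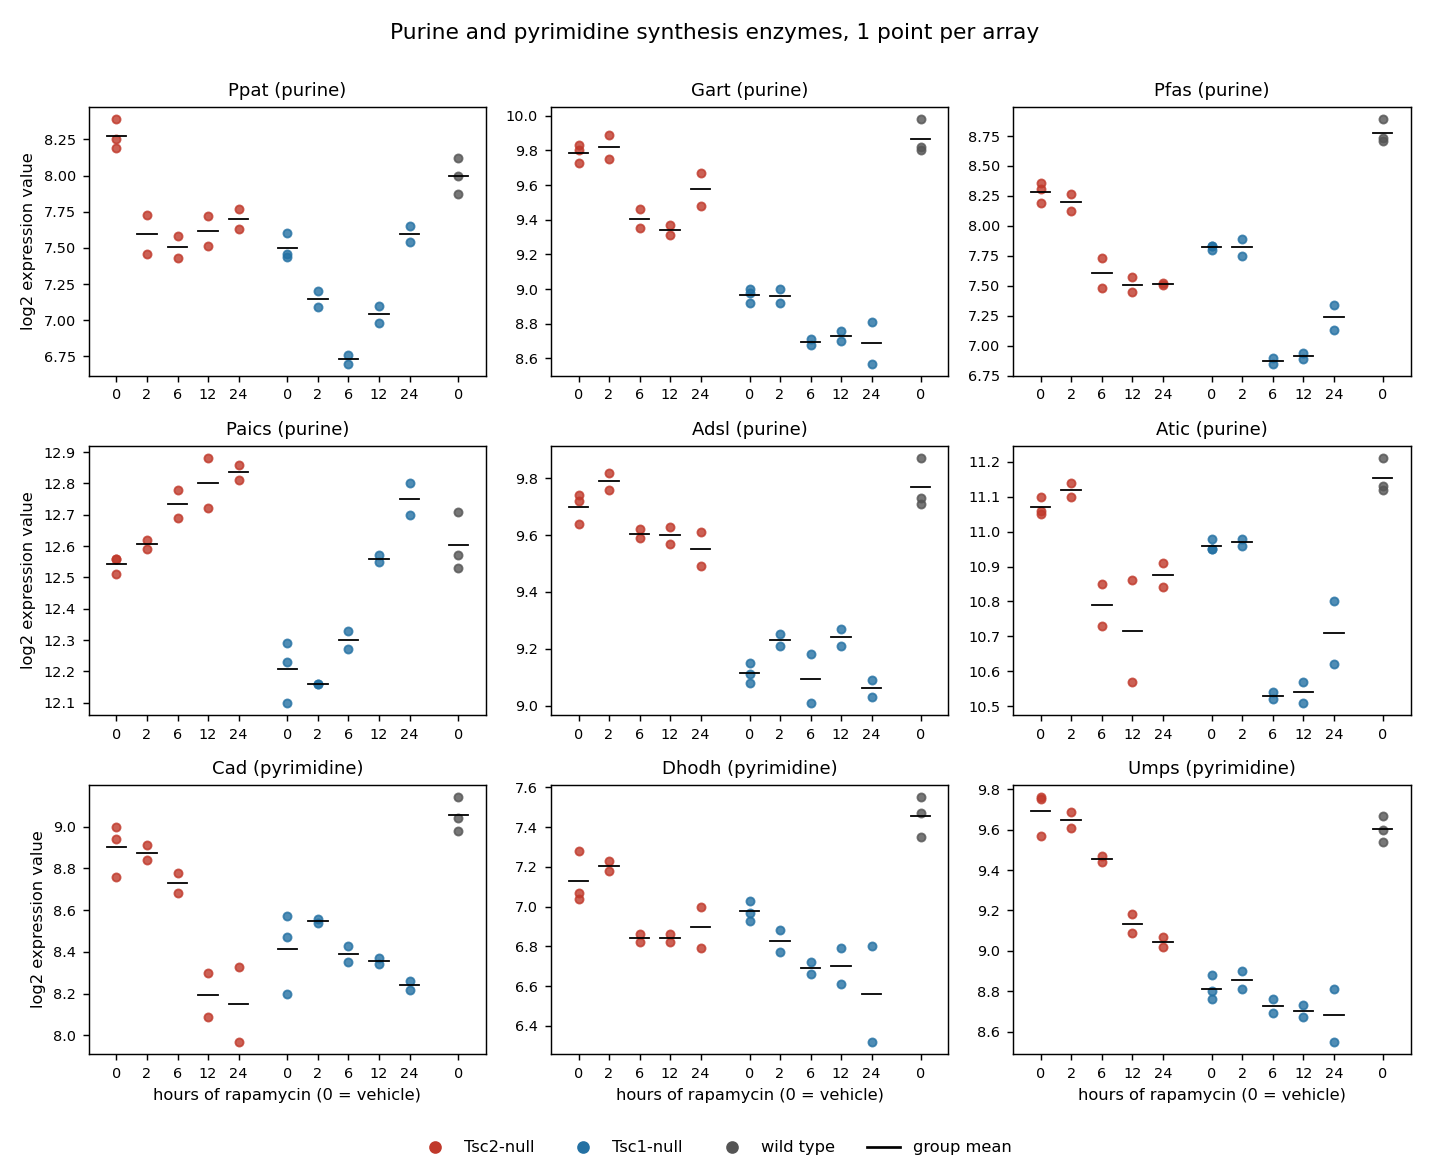
Log2 expression values of the 9 enzymes, 1 point per array and a bar at each group mean, by line and hours of rapamycin (0 is vehicle). Pfas runs from 6.85 in a Tsc1-null array at 6 h to 8.89 in a wild-type array, and Paics is the gene whose group means climb from 2 h of rapamycin onward in both null lines.

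By brightest probe set, transcripts of 4 of 6 purine enzymes were lower at 6 and 12 h of rapamycin in both null lines. The Paics transcript was higher at 12 and 24 h in both. By their brightest probe sets, the pyrimidine genes Cad and Umps passed the test in Tsc2-null and not in Tsc1-null cells, a difference tested below. When the probe sets were averaged instead, Cad at 24 h and Umps at 6 h were also called lower in Tsc1-null cells. Gart at 12 and 24 h was then no longer called there. In the deposited log2 ratio table, Ppat in Tsc1-null cells was at 0.00 at 6 and 12 h and Paics in Tsc2-null cells at 0.01 at 12 h, and none of these was called. Of the probe sets in that table, 61.4% read 0 throughout, and how its zeros arose was not tested. At 2 h, 1 of 9 genes was called in Tsc2-null cells, where 2.20% of all genes were called, and 0 of 9 in Tsc1-null cells, where 3.26% were. At an unadjusted p under 0.05 the Tsc1-null count was 1 of 9, against 15.0% of all genes. At 6 h the counts were 5 of 9 in Tsc2-null cells (21.3% of all genes) and 4 of 9 in Tsc1-null cells (22.5%), all of them lower. At 12 h they were 8 of 9 in Tsc2-null cells (34.1%), 7 lower and 1 higher, and 5 of 9 in Tsc1-null cells (23.8%), 4 lower and 1 higher. At 24 h they were 5 of 9 in each line, 4 lower and 1 higher, where 35.6% of all genes were called in the Tsc2-null and 29.6% in the Tsc1-null line. The median difference of the 9 at 24 h was -0.23 in the Tsc2-null and -0.17 in the Tsc1-null line, against -0.00 in the Tsc2-null and -0.01 in the Tsc1-null line over all genes. All 4 times of a line share its vehicle arrays.

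**Figure D3:**
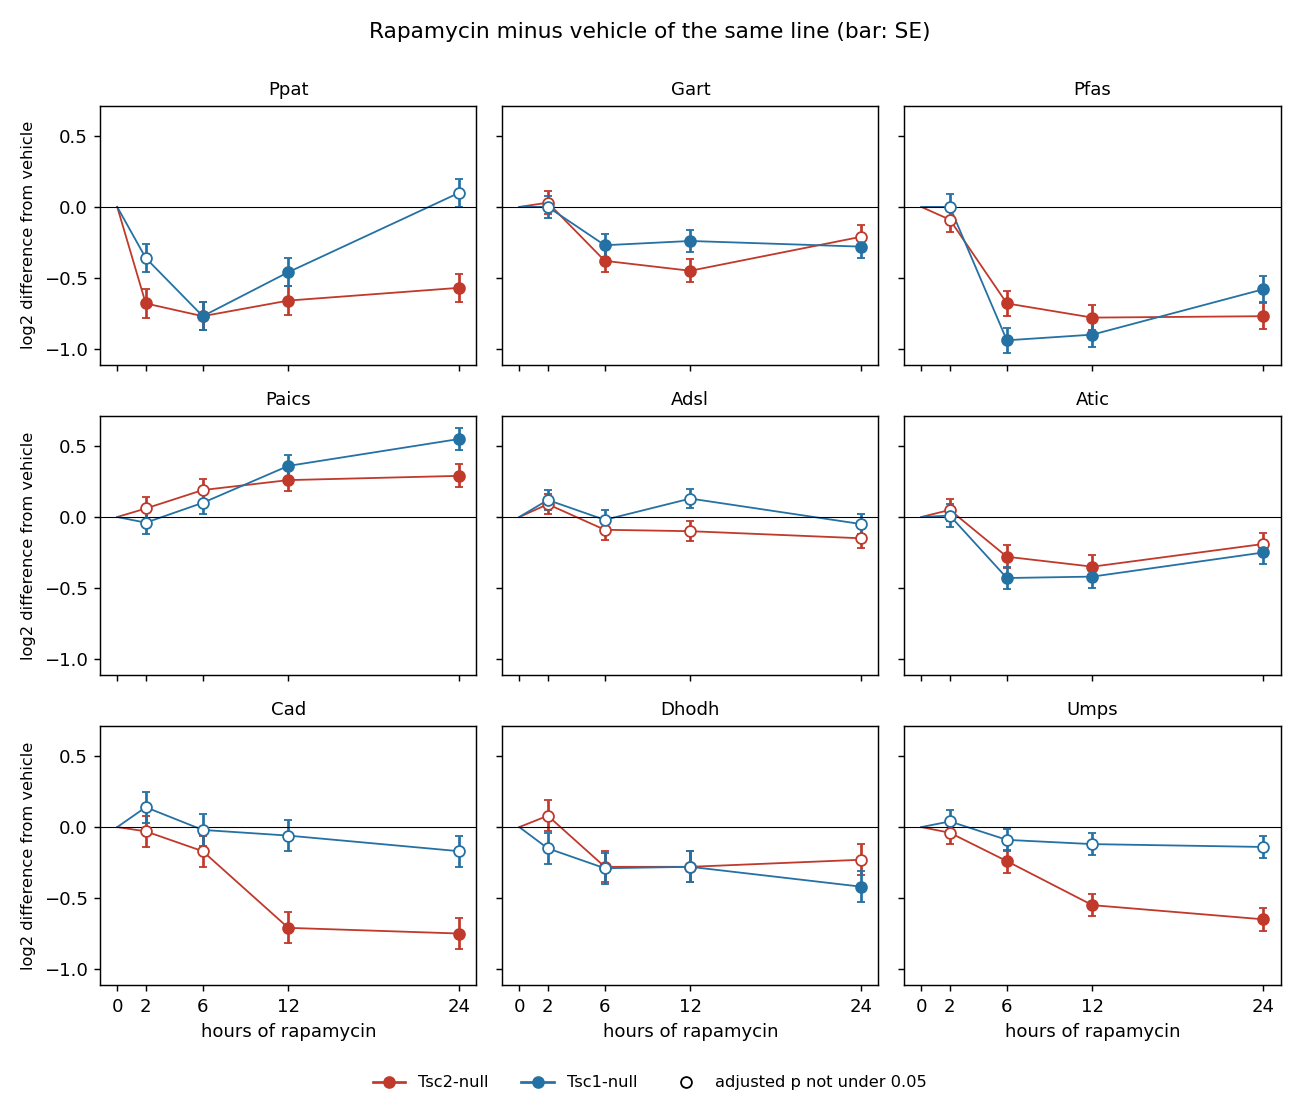
Log2 difference from the vehicle of the same line at each time of rapamycin, with the SE as a bar; filled points have an adjusted p under 0.05. Ppat is already down at 2 h in Tsc2-null cells (-0.68), Pfas reaches -0.94 at 6 h in Tsc1-null cells, Paics ends at 0.29 in the Tsc2-null and 0.55 in the Tsc1-null line, and the lines separate in Cad and Umps at 12 and 24 h.

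Ppat was the 1 gene called at 2 h. In Tsc2-null cells it read 8.39, 8.25 and 8.19 under vehicle, 7.46 and 7.73 at 2 h, 7.58 and 7.43 at 6 h, 7.72 and 7.51 at 12 h, and 7.77 and 7.63 at 24 h. No treated array overlapped vehicle, and the difference was -0.68 at 2 h (SE 0.10, adjusted p = 2.6e-04), -0.77 at 6 h (5.6e-06), -0.66 at 12 h (1.3e-05) and -0.57 at 24 h (6.4e-05). In Tsc1-null cells Ppat read 7.46, 7.44 and 7.60 under vehicle, 7.09 and 7.20 at 2 h, 6.70 and 6.76 at 6 h, 6.98 and 7.10 at 12 h, and 7.54 and 7.65 at 24 h. The values at 2, 6 and 12 h lay below vehicle and those at 24 h overlapped it. Differences were -0.36 at 2 h (adjusted p = 0.0506, not called), -0.77 at 6 h (7.6e-06), -0.46 at 12 h (0.00122) and 0.10 at 24 h (0.555). The change at 24 h differed between the lines by 0.67 (Tsc1-null minus Tsc2-null, SE 0.14, adjusted p = 0.00122 for the interaction). The free text gives these Tsc1-null arrays 14 h of rapamycin, and its part was not tested. A second Ppat probe set, described below, stayed low at 24 h in Tsc1-null cells.

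Pfas had the deepest fall among the 9 genes in both lines at 6 and 12 h except for Ppat at 6 h in Tsc2-null cells. In Tsc2-null cells it read 8.36, 8.31 and 8.19 under vehicle, 8.12 and 8.27 at 2 h, 7.73 and 7.48 at 6 h, 7.57 and 7.45 at 12 h, and 7.51 and 7.52 at 24 h. In Tsc1-null cells it read 7.83, 7.80 and 7.83 under vehicle, 7.89 and 7.75 at 2 h, 6.90 and 6.85 at 6 h, 6.94 and 6.89 at 12 h, and 7.13 and 7.34 at 24 h. Every array from 6 h on was below every vehicle array of its line, and those at 2 h overlapped vehicle. The difference at 6 h was -0.68 (SE 0.09, adjusted p = 7e-06) in Tsc2-null cells, or 62.2% of vehicle, and -0.94 (SE 0.09, adjusted p = 1.6e-07) in Tsc1-null cells, or 52.0%. At 24 h it was -0.77 (adjusted p = 3.4e-07) in Tsc2-null and -0.58 (adjusted p = 2.3e-05) in Tsc1-null cells. In the main fit the lines were not called different in this response at any time, with an interval of -0.07 to 0.45 at 24 h. With the deposited log2 ratio table the Pfas interaction was called at 6 h (0.31, adjusted p = 0.0308), 12 h (0.38, 0.00454) and 24 h (0.26, 0.0272).

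Gart and Atic fell by less. Gart had a difference of -0.38 at 6 h (SE 0.08, adjusted p = 0.00198) and -0.45 at 12 h (1.9e-04) in Tsc2-null cells, and read 9.67 and 9.48 at 24 h, against 9.73, 9.83 and 9.80 under vehicle, where the test was not passed (-0.21, adjusted p = 0.0547). In Tsc1-null cells Gart had differences of -0.27 at 6 h (0.0244), -0.24 at 12 h (0.0458) and -0.28 at 24 h (0.0142). The call at 6 h was lost without the second or the third vehicle array or either 6 h array (0.0605 to 0.153). That at 12 h was lost on leaving out any 1 of its 5 arrays (0.0563 to 0.255) and with the replicate number as a block (0.0649). That at 24 h was lost without the first 24 h array (0.297). When the Gart probe sets were averaged, the Tsc1-null calls at 12 h (-0.16, adjusted p = 0.0865) and 24 h (-0.13, 0.168) were lost. In Tsc2-null cells the 24 h fall was then called (-0.33, adjusted p = 3.1e-04). Atic read 10.52 and 10.54 at 6 h and 10.51 and 10.57 at 12 h in Tsc1-null cells, against 10.95, 10.95 and 10.98 under vehicle, and its differences of -0.43 (SE 0.08, adjusted p = 4e-04) and -0.42 (3.1e-04) were called whichever array was left out. At 24 h the Tsc1-null difference was -0.25 (0.0168), lost without the first 24 h array (0.259). In Tsc2-null cells Atic had -0.28 at 6 h (0.0128), lost without the second 6 h array (0.151), and -0.35 at 12 h (0.00109), lost without the second 12 h array (0.0778). At 24 h it was at -0.19 (0.067) there.

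Paics, the enzyme after the first ring closure, was the only one of the 9 called higher at any time. In Tsc2-null cells it read 12.51, 12.56 and 12.56 under vehicle, 12.62 and 12.59 at 2 h, 12.78 and 12.69 at 6 h, 12.88 and 12.72 at 12 h, and 12.86 and 12.81 at 24 h. In Tsc1-null cells it read 12.10, 12.23 and 12.29 under vehicle, 12.16 and 12.16 at 2 h, 12.27 and 12.33 at 6 h, 12.57 and 12.55 at 12 h, and 12.70 and 12.80 at 24 h. At 12 and 24 h every treated array lay above vehicle in both lines. The difference was 0.26 at 12 h (SE 0.08, adjusted p = 0.0101, and 0.169 without the first 12 h array) and 0.29 at 24 h (0.00384) in Tsc2-null cells. In Tsc1-null cells it was 0.36 at 12 h (0.00101) and 0.55 at 24 h (SE 0.08, adjusted p = 5.4e-06), a 1.46-fold rise. Ppat and Paics, whose starts face each other on chromosome 5, thus passed the test in opposite directions at 12 h in both lines. Adsl was called at no time in either line, with differences between -0.15 and 0.13.

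Of the pyrimidine genes, Cad in Tsc2-null cells was not called at 2 and 6 h and was lower at 12 and 24 h. It read 8.94, 9.00 and 8.76 under vehicle, 8.84 and 8.91 at 2 h, 8.68 and 8.78 at 6 h, 8.30 and 8.09 at 12 h, and 8.33 and 7.97 at 24 h. The difference was -0.71 at 12 h (SE 0.11, adjusted p = 1.9e-05) and -0.75 at 24 h (SE 0.11, adjusted p = 7.5e-06), which is 59.6% of vehicle. In Tsc1-null cells Cad read 8.57, 8.47 and 8.20 under vehicle, 8.56 and 8.54 at 2 h, 8.43 and 8.35 at 6 h, 8.37 and 8.34 at 12 h, and 8.26 and 8.22 at 24 h. All 4 times overlapped vehicle there, and the 24 h difference was -0.17 (interval -0.40 to 0.06). When the Cad probe sets were averaged, the 24 h difference in Tsc1-null cells was called (-0.29, adjusted p = 0.0165).

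Umps, which closes the route, was lower in Tsc2-null cells from 6 h. In Tsc2-null cells it read 9.75, 9.57 and 9.76 under vehicle, 9.61 and 9.69 at 2 h, 9.47 and 9.44 at 6 h, 9.18 and 9.09 at 12 h, and 9.07 and 9.02 at 24 h. Its differences were -0.24 at 6 h (adjusted p = 0.0451, not called without either of the 6 h arrays or the first or the third vehicle array, 0.124 to 0.182, nor with the replicate block, 0.077), -0.55 at 12 h (1.2e-05) and -0.65 at 24 h (SE 0.08, adjusted p = 1.2e-06). In Tsc1-null cells it read 8.80, 8.88 and 8.76 under vehicle, 8.67 and 8.73 at 12 h, and 8.55 and 8.81 at 24 h. At 6 h its difference there was -0.09 and not called, but averaging the Umps probe sets gave a called one (-0.22, adjusted p = 0.0129). The 24 h difference of -0.14 (interval -0.31 to 0.03) was not called, but was called without the second 24 h array (-0.27, adjusted p = 0.0434).

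The lines differed in these 2 responses by the interaction test. At 12 and 24 h the free text gives the Tsc1-null arrays a shorter exposure (11 h and 14 h), and its part was not tested. For Cad the change in Tsc1-null minus that in Tsc2-null cells was 0.65 at 12 h (SE 0.15, adjusted p = 0.0069) and 0.58 at 24 h (SE 0.15, adjusted p = 0.00884). For Umps it was 0.44 at 12 h (SE 0.12, adjusted p = 0.0159) and 0.51 at 24 h (SE 0.12, adjusted p = 0.00264). Without the second Tsc2-null 12 h array the 12 h terms were not called (0.0585 for Cad and 0.0782 for Umps, whose term was also lost without the second Tsc1-null 12 h array, 0.0748), and without the second Tsc2-null 24 h array the Cad term at 24 h was not called (0.0911). In the deposited log2 ratio table neither 12 h term was called (Cad 0.44, adjusted p = 0.167, and Umps 0.40, adjusted p = 0.0552). In all, 0 of 9 genes had an interaction at 2 h (0.105% of all genes), 0 at 6 h (4.16%), 2 at 12 h (11.3%) and 3 at 24 h (20.2%), Ppat being added to Cad and Umps. At an unadjusted p under 0.05 limma's counts at 2 and 6 h were 1 and 0 of 9, against 5.22% and 21.0% of all genes.

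Genes of DNA replication and mitosis also differed between the lines in their response, with a called interaction at 24 h in 14 of 14 (median 1.50), against 20.2% of all genes. Of 14 measured, 0 were higher and 14 lower at 24 h of rapamycin in Tsc2-null cells (median -1.29), and 9 were higher and 2 lower in Tsc1-null cells (median 0.35), where 35.6% of all genes were called in the Tsc2-null and 29.6% in the Tsc1-null line. Mcm5, of the replicative helicase, was at -1.42 in Tsc2-null cells (adjusted p = 2.4e-11) and at 1.04 in Tsc1-null cells (6e-09). Bub1, of the spindle checkpoint, was at -2.34 in Tsc2-null cells (6.7e-13) and at -0.37 in Tsc1-null cells (0.0173). Mcm7 rose by 1.03 in Tsc1-null cells, and Pcna was at -1.67 in the Tsc2-null and -0.41 in the Tsc1-null line. Against wild type under vehicle, 11 of the 14 were higher and 1 lower in Tsc2-null cells, and 0 were higher and 10 lower in Tsc1-null cells, where 45.0% of all genes were called in the Tsc2-null and 42.1% in the Tsc1-null line. Mcm3 was 1.22 higher in Tsc2-null cells there, and Mcm4 was at -1.24 in Tsc1-null cells. Their part in the Cad and Umps results was not tested.

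By its brightest probe set, Dhodh, the mitochondrial enzyme, had differences near the threshold in both lines. In Tsc2-null cells it read 6.82 and 6.86 at 6 h, 6.86 and 6.82 at 12 h, and 6.79 and 7.00 at 24 h, against 7.28, 7.07 and 7.04 under vehicle. Of its differences there, -0.28 at 12 h was called (adjusted p = 0.0484) and was not called without either 12 h array or the first or second vehicle array (0.0562 to 0.194), nor with the replicate block (0.066). In Tsc1-null cells it read 6.32 and 6.80 at 24 h, against 6.93, 7.03 and 6.97 under vehicle. That difference of -0.42 (SE 0.11, adjusted p = 0.00491) rested on the first 24 h array, without which it was -0.18 (0.287). With the Dhodh probe sets averaged, Tsc2-null cells were called lower at 6 h (-0.42, adjusted p = 9.2e-04) and 24 h (-0.40, 6.4e-04). Tsc1-null cells were then called lower at 6 h (-0.41, 0.0014) and 12 h (-0.33, 0.00674). In the log2 ratio table the Tsc2-null 12 h and Tsc1-null 24 h differences were 0.00 and not called.

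After 24 h of rapamycin the enzyme transcripts of the null lines lay below the untreated wild-type level, apart from Paics. In Tsc2-null cells 9 of 9 were called against wild type (41.6% of all genes), 8 lower and Paics higher (0.23, adjusted p = 0.0172). In Tsc1-null cells 8 of 9 were called, all lower (38.5% of all genes), and Paics was at 0.15 (interval -0.01 to 0.30). Pfas had the lowest standing, at 41.8% of wild type in Tsc2-null cells (-1.26, SE 0.09, adjusted p = 6.7e-11) and 34.4% in Tsc1-null cells (-1.54, SE 0.09, adjusted p = 3e-12). Gart was at 81.6% in the Tsc2-null and 44.1% in the Tsc1-null line, and Cad at 53.5% in the Tsc2-null and 56.9% in the Tsc1-null line. Without the second 24 h array, Tsc2-null cells lost the calls of Ppat (0.19), Gart (0.16), Atic (0.0642) and Adsl (0.188), and without the first, that of Paics (0.114). The calls of Ppat (0.0855) and Adsl (0.0795) were also lost without wild-type replicate 1, and that of Paics without wild-type replicate 2 (0.0527) or 3 (0.0749). These comparisons share the wild-type arrays with those under vehicle.

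The probe sets of a gene did not always give the same answer. The second Ppat probe set, 1428543_at, was at 0.44 in the Tsc2-null and -0.83 in the Tsc1-null line against wild type, both called, in the direction of the one used, 1452831_s_at, whose suffix marks probes that can match several transcripts. After rapamycin it was at -0.12 at 2 h in Tsc2-null cells, not called, and at 24 h it was lower in both lines, at -1.15 in the Tsc2-null and -0.80 in the Tsc1-null line, where the one used stood at 0.10. The early fall of Ppat and its return at 24 h in Tsc1-null cells were therefore seen with 1 of the 2 brighter probe sets only. The remaining one, 1441770_at, was dim (mean 4.15).

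Among the others, Cad 1440857_at went against the rest. It was 0.43 higher in Tsc1-null cells than in wild type and was at -0.57 at 24 h of rapamycin in Tsc1-null cells, both called, while 1452830_s_at followed the probe set used, with -0.70 against wild type and -0.13 at 24 h. Umps 1434859_at was 0.60 higher in Tsc2-null cells than in wild type and also had interactions at 12 h (0.48) and 24 h (0.80), both called. The Paics probe sets rose in Tsc1-null cells at 24 h by 0.78 (1423564_a_at) and 0.96 (1436298_x_at), and both had a called interaction at 24 h (0.53 and 0.92), where the one used had 0.26 (adjusted p = 0.0952). Dhodh 1417582_s_at was called lower at 6, 12 and 24 h in both lines, with differences between -0.66 and -0.38. Gart had 4 probe sets, all lower in Tsc1-null cells than in wild type (-0.90 to -0.39).

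**Figure D4:**
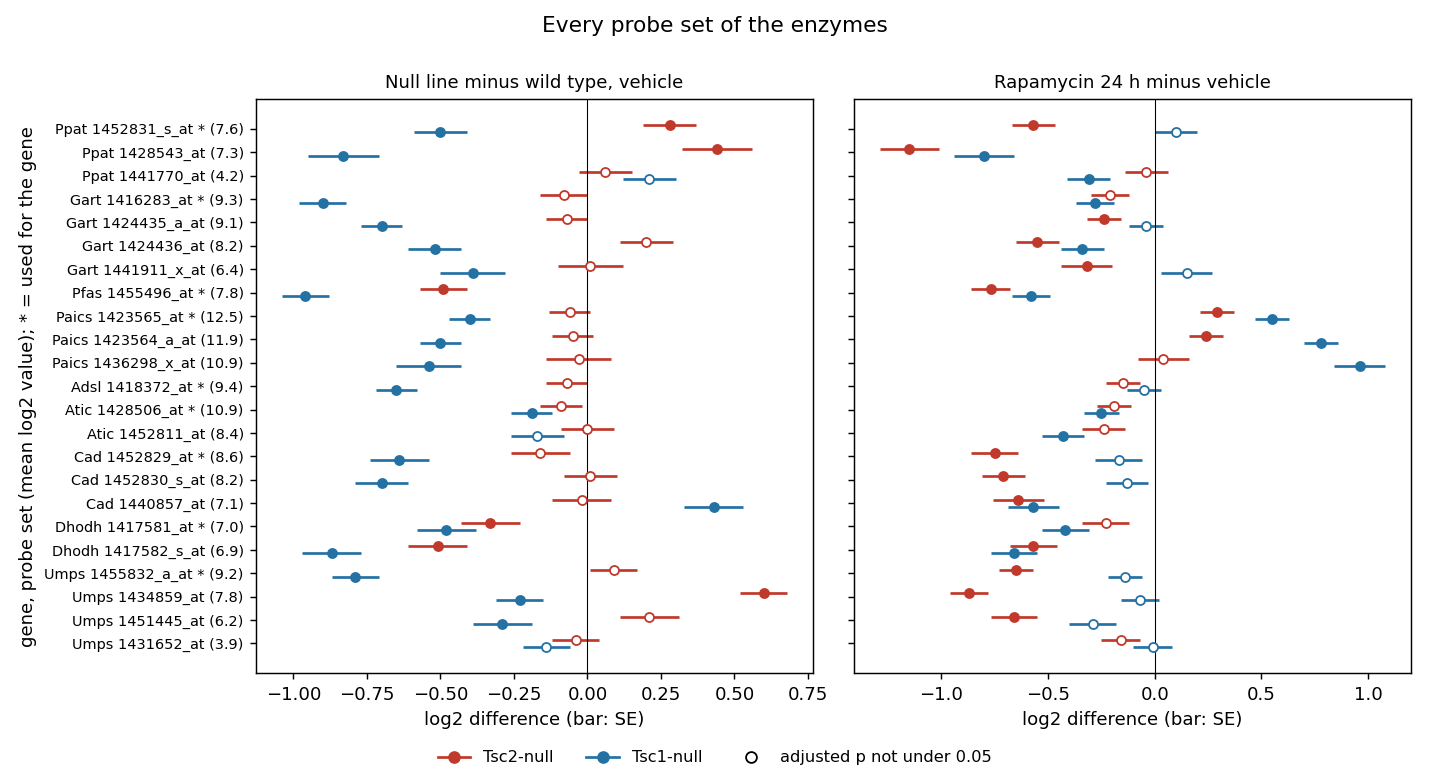
Log2 differences with SE for all 23 probe sets, null line minus wild type under vehicle on the left and 24 h of rapamycin minus vehicle on the right; a star marks the probe set used for the gene and brackets give its mean log2 value. The second Ppat probe set lies at -0.80 for Tsc1-null cells on the right where the one used lies at 0.10, and Cad 1440857_at lies at 0.43 for Tsc1-null cells on the left where the one used lies at -0.64.

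Most of the listed folate and serine metabolism genes were called lower at 24 h of rapamycin. This metabolism supplies carbon and nitrogen to the purine ring, though not every listed gene acts in that supply. Of 14 measured, 0 were higher and 11 lower at 24 h of rapamycin in Tsc2-null cells (median -1.29), and 0 were higher and 9 lower in Tsc1-null cells (median -0.87), against 35.6% (Tsc2-null) and 29.6% (Tsc1-null) of all genes called. At 6 h their median was -0.25 in the Tsc2-null and -0.37 in the Tsc1-null line, beside -0.28 (Tsc2-null) and -0.27 (Tsc1-null) for the 9 enzymes. Psph, the last enzyme of serine synthesis, was at -2.38 in the Tsc2-null (SE 0.09, adjusted p = 3.2e-14) and -2.51 in the Tsc1-null line (SE 0.09, adjusted p = 2.3e-14). The mitochondrial folate enzyme Mthfd2 fell with rapamycin in both lines, at -1.88 in the Tsc2-null and -1.47 in the Tsc1-null line. Aldh1l2, also mitochondrial, fell with rapamycin in both lines, at -2.00 in the Tsc2-null and -1.85 in the Tsc1-null line. Under vehicle the list was mixed, with 7 higher and 3 lower in each null line against wild type. Of all genes, 45.0% (Tsc2-null) and 42.1% (Tsc1-null) were called in those comparisons. Psph was 1.30 higher in the Tsc2-null and 1.88 higher in the Tsc1-null line, Aldh1l1 3.27 higher in Tsc2-null cells, and Aldh1l2 1.67 higher in Tsc1-null cells. Mthfd2 was 0.76 higher in the Tsc2-null and 1.18 higher in the Tsc1-null line. Mthfd2 and Psph were thus higher in both null lines than in wild type and lower after rapamycin, a pairing that none of the 9 enzymes had in both lines.

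The other genes of synthesis and phosphate transfer, 16 measured, split. At 24 h of rapamycin 4 were higher and 7 lower in Tsc2-null cells and 3 higher and 7 lower in Tsc1-null cells, with a median of -0.21 in each, again beside 35.6% (Tsc2-null) and 29.6% (Tsc1-null) of all genes called. Ctps, which turns UTP into CTP, rose by 0.90 in the Tsc2-null (adjusted p = 1.5e-09) and 1.41 in the Tsc1-null line (4.2e-12), and under vehicle it was at -0.76 in the Tsc2-null and -0.70 in the Tsc1-null line against wild type. Ak4, a mitochondrial adenylate kinase, did the reverse: it was 2.54 higher in the Tsc2-null and 2.21 higher in the Tsc1-null line than in wild type, and after rapamycin it was at -1.78 in the Tsc2-null and -1.75 in the Tsc1-null line. Nme1, a nucleoside diphosphate kinase, fell with rapamycin in both lines, at -0.95 in the Tsc2-null and -1.37 in the Tsc1-null line. On the way from IMP to GMP, Gmps fell with rapamycin in both lines, at -0.73 in the Tsc2-null and -0.51 in the Tsc1-null line. Impdh1, the sister enzyme of the unmeasured Impdh2, fell with rapamycin in both lines, at -0.34 in the Tsc2-null and -0.46 in the Tsc1-null line. Prps2, which makes the ribose donor of both routes, was at -0.90 in the Tsc2-null and -0.43 in the Tsc1-null line against wild type, and rose with rapamycin by 0.49 in the Tsc2-null and 0.26 in the Tsc1-null line. Prps1 was at -0.48 in Tsc2-null cells after rapamycin and at -0.20 in Tsc1-null cells, where it was not called. Ak1 was 1.59 higher in Tsc1-null cells than in wild type.

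In salvage, the reuse of ready-made bases and nucleosides, 2 of 15 measured genes were higher and 5 lower at 24 h in Tsc2-null cells (median -0.08), and 2 higher and 4 lower in Tsc1-null cells (median 0.07). These shares are near the 35.6% (Tsc2-null) and 29.6% (Tsc1-null) of all genes called. Hprt, which reuses hypoxanthine and guanine, fell with rapamycin in both lines, at -0.72 in the Tsc2-null and -0.81 in the Tsc1-null line. Aprt, which reuses adenine, fell with rapamycin in both lines, at -0.26 in the Tsc2-null and -0.27 in the Tsc1-null line, and under vehicle it was at -1.08 in Tsc1-null cells against wild type. Dck, a deoxynucleoside kinase, was at -1.74 in Tsc2-null cells and at 0.09, not called, in Tsc1-null cells. Cda, cytidine deaminase, stood at -1.10 in the Tsc2-null and 2.27 in the Tsc1-null line against wild type. Upp1, uridine phosphorylase, was at -1.50 in Tsc2-null cells against wild type and at -0.92 at 24 h of rapamycin in Tsc1-null cells.

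Among 7 genes of deoxynucleotide supply, 1 was higher and 6 lower at 24 h in Tsc2-null cells (median -0.73) and 1 higher and 2 lower in Tsc1-null cells (median -0.09), beside the same 35.6% (Tsc2-null) and 29.6% (Tsc1-null) over all genes. Rrm2, a ribonucleotide reductase subunit, was at -2.73 in the Tsc2-null and -1.08 in the Tsc1-null line, and under vehicle it was 1.32 higher in Tsc2-null cells than in wild type and at -2.22 in Tsc1-null cells. Tyms, which makes thymidylate, was at -0.73 in Tsc2-null cells and at -0.09, not called, in Tsc1-null cells after rapamycin. Dut, a dUTPase, was at -1.14 in Tsc2-null cells, Dtymk, a thymidylate kinase, at -0.86 in the Tsc2-null and -0.53 in the Tsc1-null line, and Rrm1 was at -0.77 in Tsc1-null cells against wild type. Of 12 breakdown genes, 2 were higher and 3 lower in Tsc2-null cells at 24 h (median -0.16) and 1 higher and 3 lower in Tsc1-null cells (median -0.02), shares near those 35.6% and 29.6%. Xdh, xanthine dehydrogenase, was 3.14 higher in Tsc1-null cells than in wild type. Ampd3, an AMP deaminase, and Samhd1, which breaks down deoxynucleotides, were at -1.84 and -0.88 in Tsc2-null cells against wild type. The nucleotidase gene Nt5c3 was lower with rapamycin, at -0.81 in the Tsc2-null and -0.76 in the Tsc1-null line, and Nt5c2 fell by 0.83 in Tsc1-null cells. Gda, guanine deaminase, rose by 1.10 in Tsc2-null cells.

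**Figure D5:**
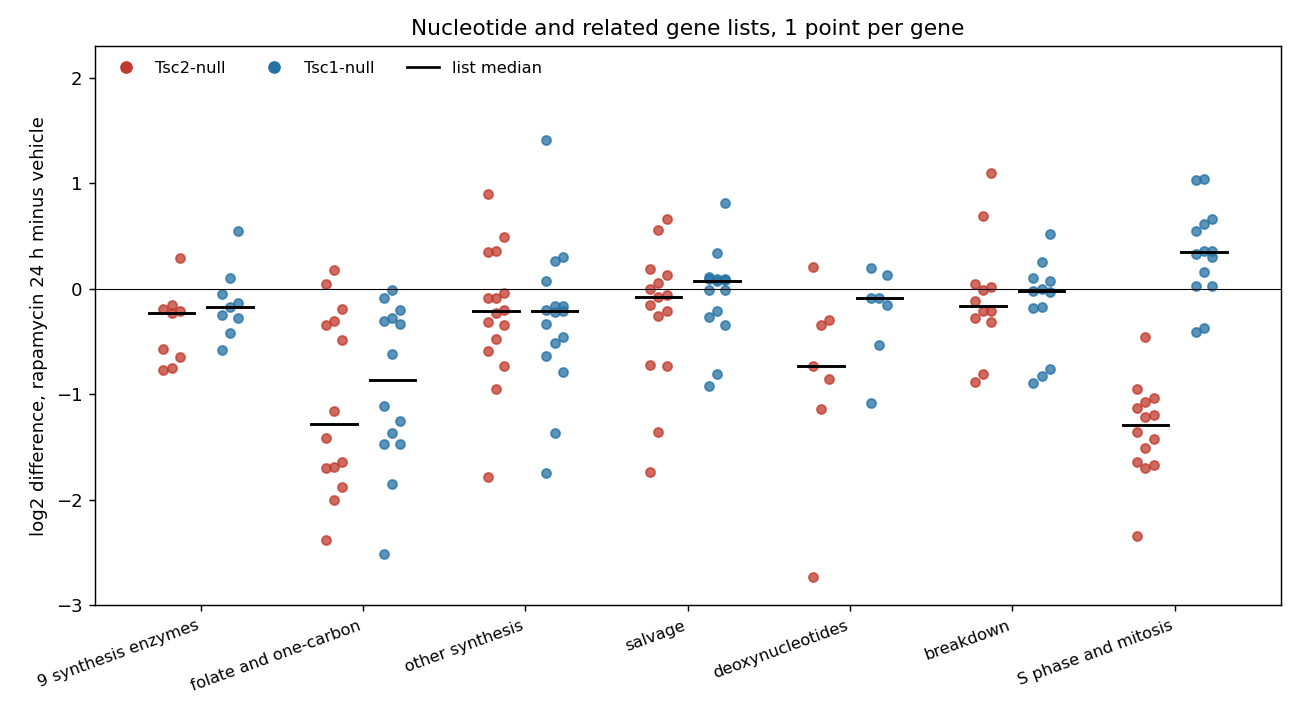
Log2 difference at 24 h of rapamycin for each gene of the 9 enzymes and 6 related lists, 1 point per gene, with the list median as a bar. The folate and one-carbon medians lie at -1.29 (Tsc2-null) and -0.87 (Tsc1-null), below those of the 9 enzymes at -0.23 (Tsc2-null) and -0.17 (Tsc1-null), and the S phase and mitosis medians lie at -1.29 (Tsc2-null) and 0.35 (Tsc1-null).

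Of the 10 regulators measured, 3 were higher and 3 lower at 24 h in Tsc2-null cells and 3 higher and 1 lower in Tsc1-null cells, where 35.6% of all genes were called in the Tsc2-null and 29.6% in the Tsc1-null line. Myc, a transcription factor known to drive many of these enzymes, was at -2.56 in the Tsc2-null and -1.45 in the Tsc1-null line against wild type, and rose with rapamycin by 0.65 in the Tsc2-null and 1.12 in the Tsc1-null line. Atf4, which drives the serine and folate genes, was 0.20 higher in the Tsc2-null and 0.60 higher in the Tsc1-null line than in wild type, and after rapamycin it was at -0.85 in the Tsc2-null and -0.94 in the Tsc1-null line. E2f1, of the entry into S phase, was at -1.03 in Tsc2-null cells and at -0.04, not called, in Tsc1-null cells. Mitf was at -1.07 in the Tsc2-null and -1.32 in the Tsc1-null line against wild type.

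Averaged over the 9 enzymes, the centred profile was highest in wild-type vehicle cells (0.49 above its mean over groups) and lowest in Tsc1-null cells at 6 h of rapamycin (-0.43). Tsc2-null vehicle cells stood at 0.39 and Tsc1-null vehicle cells at -0.12. The 5 genes outside the lists whose centred profile lay nearest to this average over the 11 group means were Tsr2, Nol11, Nudc, Rsl1d1 and Wdr70, with root mean square differences of 0.058 to 0.078 on the log2 scale.

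The 9 genes differed in how far they moved over the 11 groups. The range of group means was 1.90 for Pfas and 1.55 for Ppat, and 0.67 for Paics and 0.62 for Atic. Wild-type vehicle cells had the highest mean for 5 of the 9 (Gart, Pfas, Atic, Cad and Dhodh), and 7 of the 9 had their lowest mean in Tsc1-null cells at 6 or 24 h of rapamycin. The exceptions were Cad, lowest in Tsc2-null cells at 24 h (8.15), and Paics, lowest in Tsc1-null cells at 2 h (12.16). In descending order, the group means of Pfas were 8.78 in wild type, 8.29 in Tsc2-null under vehicle, 8.19 in Tsc2-null at 2 h, 7.82 in Tsc1-null under vehicle and at 2 h, 7.60, 7.52 and 7.51 in Tsc2-null at 6, 24 and 12 h, and 7.24, 6.91 and 6.87 in Tsc1-null at 24, 12 and 6 h. The arrays of neighbours overlapped between Tsc2-null vehicle and 2 h, between Tsc1-null vehicle and 2 h, among the 3 later Tsc2-null times, and between Tsc1-null 12 h and 6 h. The other steps of this order did not overlap.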

How the data were processed

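Total RNA of 25 plates was amplified, labelled with biotin and put on Affymetrix mouse arrays, per the labels' protocols. The authors deposited log2 expression values per probe set, with RMA and limma named in the submitters' processing notes and no versions given. A second deposited table of log2 ratios, with 61.4% of its probe sets at 0 throughout, served as an alternative (9522 genes). Depth is not defined for arrays. Of 45101 probe sets, 34945 named 1 gene, and 59 symbols were updated. Groups followed the titles; free text gives 14 h and 11 h for the Tsc1-null 24 h and 12 h samples. limma 3.58.1 in R 4.3.3 fitted 11 group means (14 residual degrees of freedom), with Benjamini-Hochberg adjustment over 18161 genes per comparison and a threshold of 0.05, and was tested on simulated data. The genes and lists were chosen with earlier results of these data known. All 10 enzymes were to be named, with the 2 smallest p-values per list and main comparison, a set of named nucleotide genes, and the 5 nearest profiles. Promoters are from RefSeq. Alternatives were 2 other scalings, a damping offset of 64, the dimmest 40% left out, other probe set rules, other eBayes settings, only the compared groups, the ratio table, a replicate block and leaving out each replicate.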

Additional observations from a re-analysis of the deposited data

Results flagged for a closer look

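The rapamycin responses of 3 enzymes differed between the null lines by the interaction term of limma (Tsc1-null minus Tsc2-null change, Benjamini-Hochberg adjusted over all genes). Cad, of the opening pyrimidine reactions, had 0.65 at 12 h (SE 0.15, adjusted p = 0.0069) and 0.58 at 24 h (SE 0.15, adjusted p = 0.00884). Umps, which finishes UMP, had 0.44 at 12 h (SE 0.12, adjusted p = 0.0159) and 0.51 at 24 h (SE 0.12, adjusted p = 0.00264). Ppat, which opens the purine route, had 0.67 at 24 h (SE 0.14, adjusted p = 0.00122), while its other bright probe set had 0.34, not called. The Cad terms at 12 and 24 h and the Umps term at 12 h were each lost on leaving out 1 Tsc2-null array (adjusted p = 0.0585, 0.0911 and 0.0782). The Umps term at 12 h was also lost without the second Tsc1-null 12 h array (0.0748), with centred arrays (0.0714), with the mean of all probe sets (0.0742) and in the log2 ratio table (0.0552). The Cad term at 12 h was lost in the log2 ratio table (0.167). That of Ppat at 24 h was lost with the mean of all probe sets (0.0896). With the mean of the Cad probe sets, the 24 h fall in Tsc1-null cells was itself called (-0.29, adjusted p = 0.0165). Another Cad probe set was also called lower there, as given above. The free text gives the Tsc1-null arrays a shorter exposure (11 h for 12 h and 14 h for 24 h), and its part was not tested. At 24 h all 14 measured replication and mitosis genes also had a higher change in Tsc1-null than in Tsc2-null cells (median interaction 1.50), and their part in these results was not tested.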

How the results depend on the processing

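Of 278 counts of called enzymes recomputed under alternatives, 261 stayed within 1.5 times the reported count. In Tsc2-null cells the count at 2 h was 0 with the mean of all probe sets, at 6 h 3 with arrays centred on their medians, and at 24 h 8 both with 64 added to the linear value and with the mean of all probe sets. In Tsc1-null cells it was 1 at 2 h (Ppat) with quantile normalization, with the dimmest 40% of genes left out and with eBayes trend and robust, and 3 at 24 h with only the compared groups fitted. Interaction counts were 1 at 2 h and 2 at 6 h in the log2 ratio table, which at 12 h called Ppat, Pfas and Adsl and not Cad (0.167) or Umps (0.0552), and 1 at 12 h with centred arrays and with the mean of all probe sets. The cause of these moves was not tested. Values that reversed were Ppat at 24 h in Tsc1-null cells, at -0.34 (adjusted p = 6.7e-04) with the mean of all probe sets, where the second probe set fell, and the Pfas interaction in the ratio table, at 0.31 at 6 h (adjusted p = 0.0308) and 0.38 at 12 h (adjusted p = 0.00454), cause not tested. Leaving out 1 replicate gave 2 to 3 called for Tsc2-null against wild type, 8 to 9 for Tsc1-null against wild type and 7 between the null lines. For rapamycin it gave 1, 3 to 5, 6 to 8 and 5 to 6 at 2, 6, 12 and 24 h in Tsc2-null cells, and 0, 3 to 4, 4 and 2 to 6 in Tsc1-null cells. For the interaction it gave 0, 0, 0 to 2 and 2 to 4, and for the null lines after 24 h against wild type 5 to 8 for Tsc2-null and 8 for Tsc1-null cells. Of 2502 recomputed values of single enzymes, 2367 kept their side of the threshold without a called change of sign, 81 were no longer called, 51 became called and 3 reversed. Among the 2367, 73 values called in neither setting changed sign (at most 0.26 as reported). Centring moved the median gene by up to 0.09 and quantile normalization by up to 0.02. The deviations of same-numbered samples correlated at r -0.379 to 0.300. Both pairs were over 0.1 in 2 comparisons with 2 pairs each, Tsc2-null at 6 h against vehicle and Tsc2-null after 24 h against wild type. No comparison with 3 pairs had every pair over 0.1, and the main fit used no pairing. With 2 or 3 pairs per comparison, these correlations cannot exclude that same-numbered samples were handled together. With a replicate block the counts equalled those reported except 4 at 6 h (without Umps) and 7 at 12 h (without Dhodh) in Tsc2-null cells and 4 at 12 h (without Gart) in Tsc1-null cells.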
